A study of Oryza sativa with 16 samples.

Results

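Sucrose synthase is the enzyme that splits sucrose, with UDP, into fructose and UDP-glucose, and that can also run in the other direction. The UDP-glucose it makes is used for cellulose and callose and, by way of ADP-glucose, for starch, so that the enzyme is best known from growing and storing tissues and from the phloem, whereas a source leaf makes sucrose mainly through sucrose phosphate synthase. Invertases cleave the same sugar into glucose and fructose, without saving the energy of the bond. In rice the enzyme is encoded by a small gene family, and the members SUS1 to SUS6 are described here. They were found by symbol or synonym in the annotation of the array, with the prefix Os dropped. All 6 genes were found, out of 17905 genes that the annotation names, and they are represented by 8 of the 57194 probe sets tested, 2 each for SUS1 and SUS6 and 1 each for SUS2, SUS3, SUS4 and SUS5. The rule uses names only, no measured value, but this gene family was picked for description with earlier results of these data known.

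Gene expression was measured on 16 Affymetrix rice arrays, 2 for each of 8 groups, from seedlings grown in hydroponics. The tissue is given as leaf, but the methods of the study also name shoots, and a figure caption there names whole plants. The groups were salt-stressed and control plants of the salt-sensitive variety VSR156 and of the salt-tolerant variety CSR11, and drought-stressed and control plants of the drought-sensitive variety IR64 and of the drought-tolerant variety Vandana. The labels name the varieties only by their tolerance, and the variety names come from the methods of the study. Per the labels, salt stress was 50 mM NaCl and drought was applied by holding seedlings out of the medium, with 24 h for the stress, whereas the methods give a higher salt concentration and a shorter drought. The plants carried no transgene. The replicates of a group are lettered A and B. Per the methods, seedlings were grown in replicate boxes and their shoots were pooled before RNA extraction. Neither the methods nor the labels say whether A and B are separate pools of plants, so that the p-values measure only the spread between these arrays, which may be technical.

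The intensities differed in level between arrays before normalization. The mean deposited intensity was 36.2 and 22.9 on the VSR156 salt arrays, against 133 and 114 on the VSR156 control arrays, and it was 94.8 and 9.16 on the CSR11 salt arrays A and B, against 46.6 and 92.2 on the CSR11 control arrays, while it ranged over 99.8 to 230 in the drought experiment. Shortened RNA raises the signal of the 3′ end of a transcript over its 5′ end, and the log2 ratio of these GAPDH controls was 7.68 and 8.16 on the salt arrays of VSR156 against 4.88 and 4.61 on its control arrays, 3.32 and 6.35 on the salt arrays of CSR11 against 3.05 and 2.05 on its control arrays, and no higher than 1.34 under drought or its controls. On the 3 arrays with the largest ratios the 5′ GAPDH probe set was itself dim, at 4.14 to 7.56. The 3 leaf markers measured (RBCS, CAB2R and PSAG) summed to between 7607 and 10041 on all 16 arrays after normalization. Most of each sum came from RBCS and CAB2R, which are among the brightest probe sets. Quantile normalization sets such values by rank, so the sums say little on the amount of leaf. PSAG, a subunit of photosystem I and the dimmest of them, fell under salt, with 128 and 160 in VSR156 salt against 382 and 468 in its control (-1.46, adjusted p = 0.000101) and 118 and 166 in CSR11 salt against 591 and 651 in its control (-2.02, adjusted p = 2.55e-05), and was not called under drought. All 3 markers were thus present, but not at an even level. The 3 root transporters LSI1, LSI2 and NRAMP5, which take up silicon and manganese, summed to 1083 and 1171 in VSR156 salt against 198 and 199 in its control, to 912 and 1097 in CSR11 salt against 2395 and 2114 in its control, to 78.2 and 90.1 in IR64 drought against 165 and 197 in its control, and to 81.0 and 99.97 in Vandana drought against 156 and 160 in its control. Of these, LSI2 lay between 0.22 and 2.49 on every array of the drought experiment. The drought arrays labelled Vandana resembled the IR64 control more than their own control. For 206 probe sets the controls of both varieties differed by at least 3 on the log2 scale. Over these, the Pearson r of the Vandana drought arrays was 0.85 to the mean of IR64 control but -0.56 and -0.55 to that of Vandana control, while the IR64 drought arrays had r = 0.47 and 0.46 to IR64 control. The IR64 drought arrays had r = -0.002 and 0.019 to Vandana control, so drought arrays of both labels were nearer the IR64 control. The drought values below are therefore also given against the control of the other variety, as a check on the labels. Exchanging the controls pairs IR64 drought with the control it resembled less, so the exchange is not offered as the right labelling.

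All values below are intensities after quantile normalization, and all differences are on the scale of log2(normalized intensity + 16), which understates the change of dim probe sets. Up or down regulated means an adjusted p under 0.05 in limma (Benjamini-Hochberg) together with a change of 1 or more on this scale, and such a probe set is said to be called. Under salt, 0 member probe sets were up and 3 down regulated in VSR156, and 0 up and 4 down in CSR11. Over all probe sets tested, 7.75% changed in VSR156 (3.33% up, 4.42% down) and 6.33% in CSR11 (2.37% up, 3.97% down). Under drought, 1 member probe set was up and 2 down regulated in both IR64 and Vandana, where 6.96% of all probe sets changed in IR64 (3.01% up, 3.95% down) and 11.8% in Vandana (5.25% up, 6.52% down). The median level of all probe sets was 4.58 on the log2 scale, below every member probe set but SUS6 Os.51168.1.S1_at. A change of 1 is harder to reach for dim probe sets, so shares of members and of all probe sets are not like for like. Counted by gene, with the brightest probe set standing for its gene, 2 of 6 genes fell in VSR156 salt (SUS1 and SUS5), 3 of 6 fell in CSR11 salt (SUS1, SUS3 and SUS6), and in both drought comparisons 1 of 6 rose (SUS4) and 1 of 6 fell (SUS1). The median log2 fold change over the 8 probe sets was -0.85 in VSR156 salt, -1.01 in CSR11 salt, -0.30 in IR64 drought and -0.07 in Vandana drought, whereas the median over all probe sets was 0.02 or less in size in each. The genes thus fall into SUS1, which fell under both stresses, SUS4, which rose under drought, SUS2, which was bright in every group, and the dimmer SUS3, SUS5 and SUS6.

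**Figure D1:**
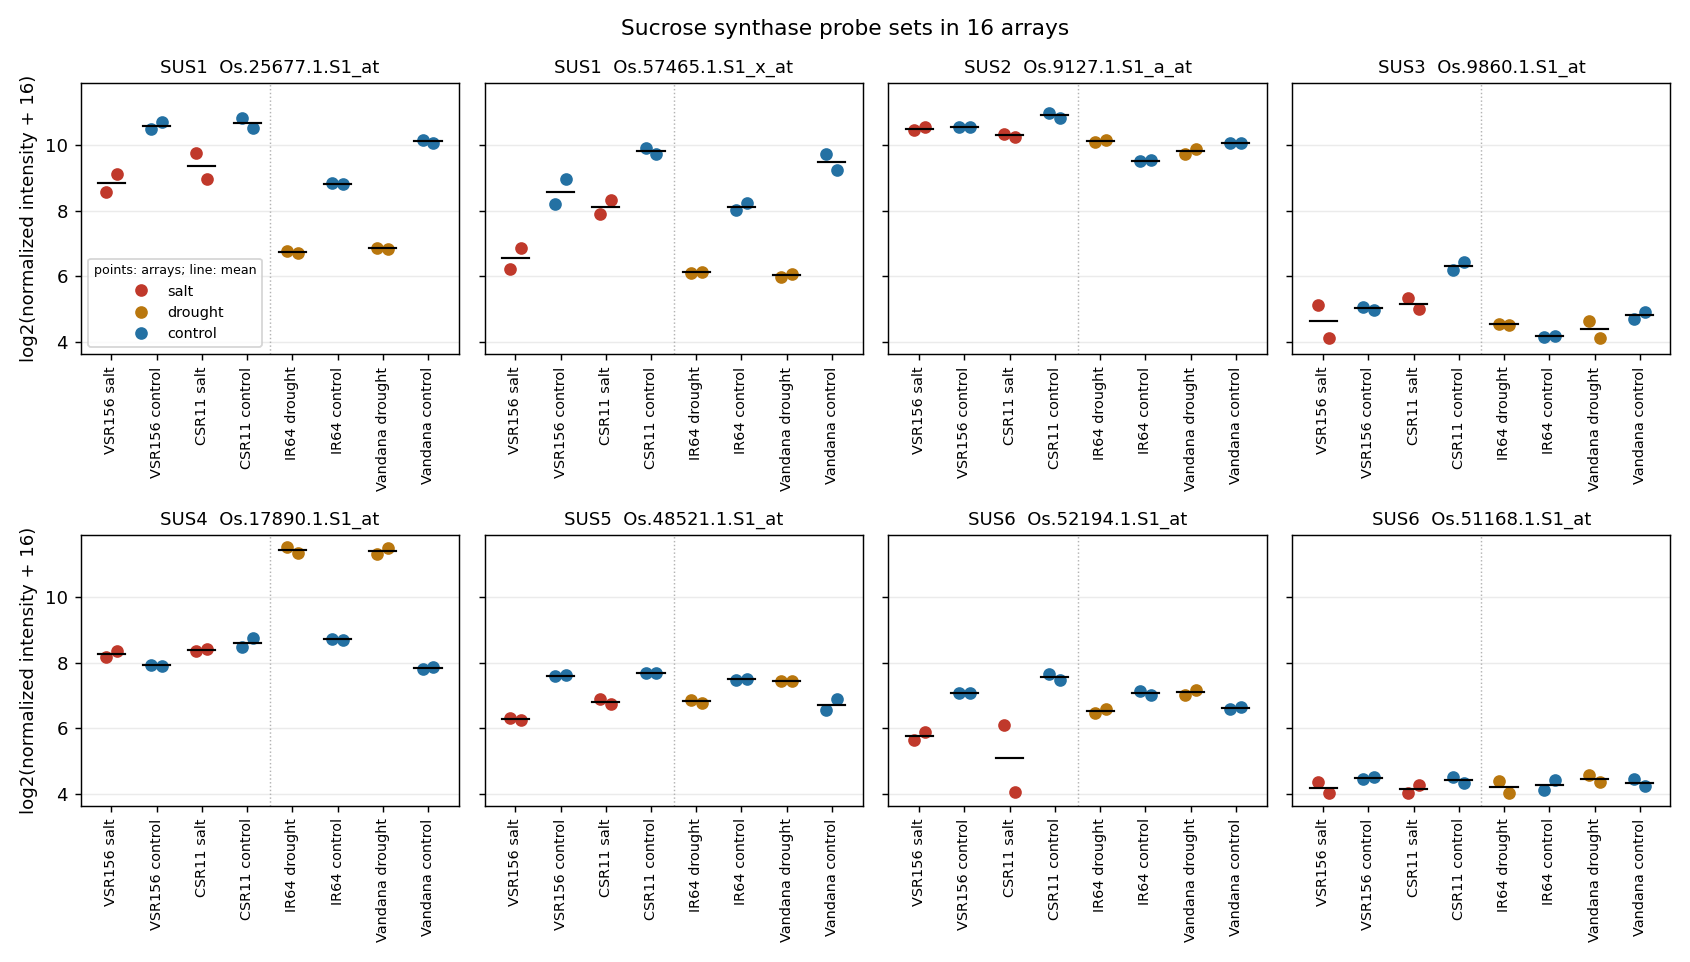
Level of each sucrose synthase probe set as log2(normalized intensity + 16) on the y axis, for 8 groups on the x axis, with 1 point per array and a line at the mean of 2 arrays; the dotted line separates the salt from the drought experiment. The stressed arrays of SUS1 lie below their own controls in all 4 varieties, and the drought arrays of SUS4 lie above all other arrays.

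SUS1, which in rice has been described from elongating tissues, was lower under stress in all 4 varieties. Its brighter probe set, Os.25677.1.S1_at, had normalized intensities of 363 and 537 in VSR156 salt, against 1428 and 1647 in VSR156 control. In CSR11 it had 854 and 486 under salt, against 1792 and 1444 in the control. The stressed and control arrays did not overlap in either variety, and the lower of the CSR11 salt values came from the faint array B. In the drought experiment the same probe set had 93.8 and 89.4 in IR64 drought, against 444 and 432 in IR64 control. In Vandana it had 99.9 and 99.1 under drought, against 1123 and 1059 in the control. The 4 drought arrays thus lay within 89.4 and 99.9, while the controls of the varieties differed.

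SUS1 fell by 1.76 on the log2 scale in VSR156 salt (SE 0.24, adjusted p = 0.000414), which is 3.38-fold. The log2 fold change was -1.30 in CSR11 salt (SE 0.24, adjusted p = 0.00368), -2.08 in IR64 drought (adjusted p = 0.000104) and -3.26 in Vandana drought (adjusted p = 1.46e-06). Without CSR11 salt array B the CSR11 difference was -0.90 (adjusted p = 0.0179), which is short of the fold threshold, and it missed the threshold on p when only the 4 arrays compared were fitted (adjusted p = 0.237). With the controls exchanged between the varieties, the difference was -3.36 for the IR64 drought arrays and -1.98 for the Vandana drought arrays (adjusted p = 1.4e-06 and 0.000167), so that the fall was called against either control. In IR64 the call was lost on values as deposited (-1.91, adjusted p = 0.583) and on arrays centred on their medians (-1.997, adjusted p = 0.303), and so was that of CSR11 (-2.39 and -2.24, adjusted p = 0.586 and 0.327). These standard errors are pooled over all groups, whose replicates were not equally close. The standard deviation between replicates was 0.38 in VSR156 salt and 0.56 in CSR11 salt, against 0.007 to 0.059 in the drought experiment. Under the t-test of the methods, which uses only the groups compared, both salt calls were lost even without adjustment. The drought calls were lost there only with adjustment. With limma fitted to the 4 arrays compared, the VSR156 call was kept.

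The other SUS1 probe set, Os.57465.1.S1_x_at, is of a type of which some probes may also match other sequences. It gave the same direction and call in each variety. It had 59.2 and 100.4 in VSR156 salt against 278 and 481 in VSR156 control, and 221 and 309 in CSR11 salt against 945 and 843 in CSR11 control. In the drought experiment it had 52.7 and 54.8 in IR64 drought against 243 and 286 in IR64 control, and 47.0 and 51.6 in Vandana drought against 826 and 591 in Vandana control. No stressed array reached a control array of its variety. Its log2 fold change was -2.03 in VSR156 salt, -1.71 in CSR11 salt, -2.004 in IR64 drought and -3.45 in Vandana drought (adjusted p = 0.000418, 0.00171, 0.000396 and 2.9e-06). In CSR11 the calls were lost at -2.61 on values as deposited and -2.46 on centred arrays (adjusted p = 0.283 and 0.0737), and in IR64 at -1.91 and -1.99 (adjusted p = 0.29 and 0.0682). Its calls in VSR156 and CSR11 salt were also lost under the unadjusted t-test of the methods. With the controls exchanged it fell at -3.36 for the IR64 and -2.10 for the Vandana drought arrays (adjusted p = 4.4e-06 and 0.000311). Both salt falls stand beside larger mean 3′ to 5′ GAPDH ratios and lower PSAG. They also stand beside root transporter sums that, after quantile normalization, were higher in VSR156 salt and lower in CSR11 salt than in the controls. The higher sum in VSR156 salt depended on the scaling, as given above. The drought falls stand beside GAPDH ratios of at most 1.34 and beside root transporter sums of 78.2 to 99.97 in the drought arrays, against 156 to 197 in the controls. The part of these in the SUS1 values was not tested.

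SUS4, described in rice mainly from the developing grain, rose under drought and was not called under salt. Its probe set, Os.17890.1.S1_at, had 2894 and 2554 in IR64 drought, against 407 and 400.1 in IR64 control. In Vandana it had 2499.6 and 2840 under drought, against 209 and 218 in the control. The drought arrays of both varieties overlapped each other and lay far above every control array. The rise was 2.70 on the log2 scale in IR64 (SE 0.13, 95% CI 2.42 to 2.99, adjusted p = 1.9e-07) and 3.55 in Vandana (SE 0.13, 95% CI 3.26 to 3.83, adjusted p = 8.66e-09). With the controls exchanged it was 3.57 for the IR64 drought arrays and 2.68 for the Vandana drought arrays (adjusted p = 1.26e-08 and 2.61e-07). On values as deposited the rise was 2.83 in IR64 and 3.03 in Vandana, and neither passed (adjusted p = 0.16 and 0.0604).

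Under salt SUS4 had 272 and 312 in VSR156 salt, against 226 and 224 in VSR156 control. In CSR11 it had 308 and 328 under salt, against 336 and 416 in the control. The VSR156 difference was 0.35 (95% CI 0.07 to 0.64, adjusted p = 0.0885) and the CSR11 difference was -0.22 (95% CI -0.51 to 0.06, adjusted p = 0.295). The intervals leave out changes of the size seen under drought, but the VSR156 value turned to -1.99 on values as deposited, where the median of all probe sets in that comparison shifted to -0.53, and to -1.44 with each array centred on its median.

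**Figure D2:**
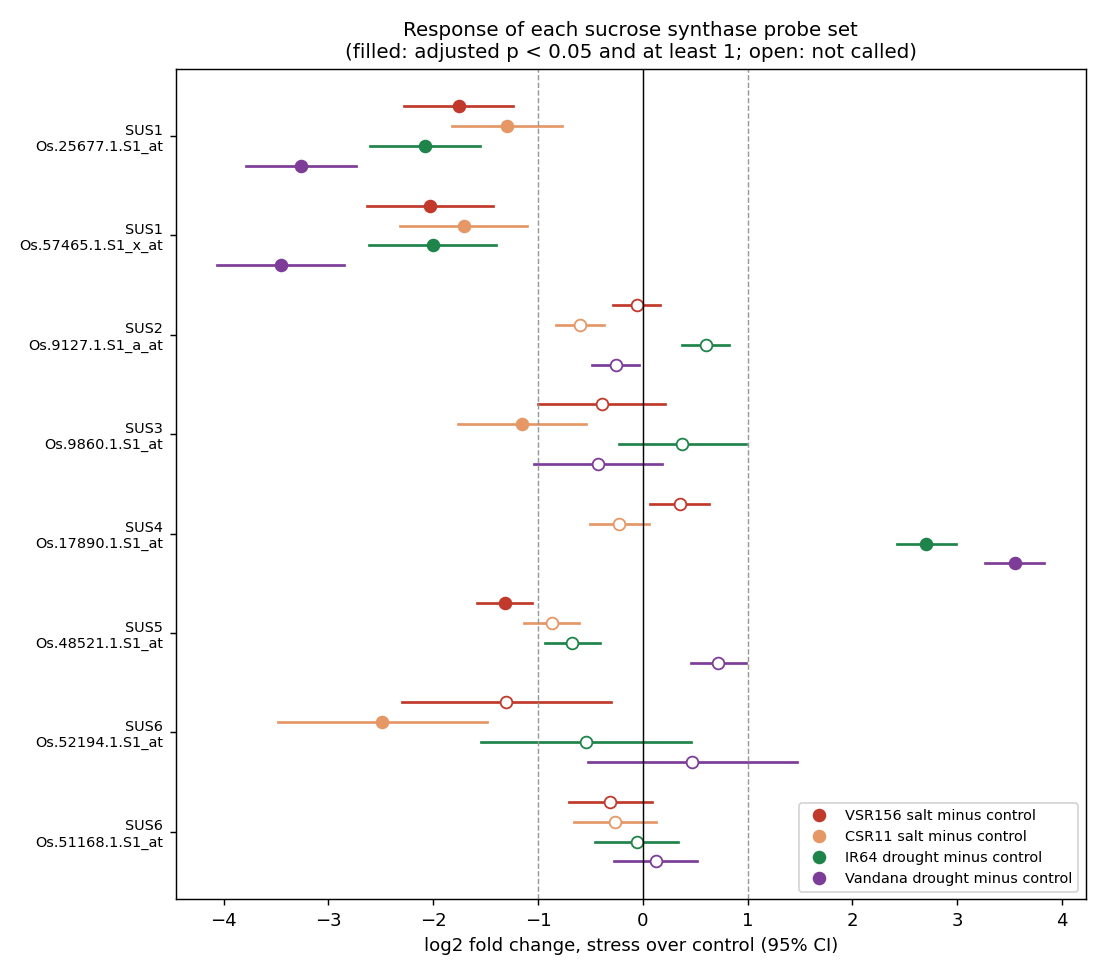
Log2 fold change of stress over control on the x axis for each probe set on the y axis, with the 95% confidence interval from limma as a line; filled points passed the adjusted p and the fold threshold, and dashed lines mark a change of 1. SUS1 is the gene with filled points in all 4 comparisons, and SUS4 lies at 2.70 and 3.55 under drought.

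SUS2, which in rice is found in most tissues, was the brightest member. Its probe set Os.9127.1.S1_a_at averaged 10.23 on the log2 scale over all arrays, above 98.9% of all probe sets, and lay between 715 and 2003 on every array. Under salt it had 1382 and 1481 in VSR156 salt against 1493 and 1489 in VSR156 control, and 1294 and 1209.7 in CSR11 salt against 2003 and 1812 in CSR11 control. Under drought it had 1071 and 1136 in IR64 drought against 715 and 731 in IR64 control, and 837 and 933 in Vandana drought against 1064 and 1057 in Vandana control. The groups did not overlap within any variety, and no difference reached the fold threshold after quantile normalization. They were -0.06 in VSR156 salt (adjusted p = 0.817), -0.60 in CSR11 salt (adjusted p = 0.00256), 0.60 in IR64 drought (adjusted p = 0.00199) and -0.26 in Vandana drought (adjusted p = 0.112). Against the other control the differences were 0.06 for the IR64 and 0.28 for the Vandana drought arrays. The salt values depend on the scaling, at -1.93 in VSR156 and -1.76 in CSR11 on values as deposited and -1.38 and -1.62 on centred arrays, and none of these passed (adjusted p = 0.127, 0.674, 0.144 and 0.443).

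SUS5 was of intermediate level and its probe set Os.48521.1.S1_at moved in different directions. It had 63.0 and 59.8 in VSR156 salt against 175 and 179 in VSR156 control, and 101.5 and 91.4 in CSR11 salt against 190.2 and 188 in CSR11 control. Under drought it had 100.5 and 92.9 in IR64 drought against 161 and 166 in IR64 control, whereas in Vandana it had 158 and 157 under drought against 77.5 and 103 in the control. The groups were apart in each variety. It fell by 1.32 in VSR156 salt (SE 0.12, adjusted p = 2.88e-05), short of the fold threshold at -0.94 with a pseudocount of 64. The other differences passed the threshold on p but not on fold, at -0.87 in CSR11 salt, -0.67 in IR64 drought and 0.72 in Vandana drought (adjusted p = 0.000703, 0.0025 and 0.000926). On values as deposited they were -1.47, -0.46 and 0.21, and none passed on p (adjusted p = 0.622, 0.945 and 0.928). The same held with centred arrays (adjusted p = 0.332, 0.811 and 0.607), whereas the VSR156 call was kept on both scalings (-3.14 and -2.59). Both drought values came close to 0 once the controls were exchanged, at 0.10 for IR64 and -0.05 for Vandana, so that the opposite signs hold only with the labels as given.

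SUS6 has a measurable probe set, Os.52194.1.S1_at, and a dim one, Os.51168.1.S1_at. The first had 34.2 and 43.5 in VSR156 salt against 120 and 118 in VSR156 control, and 52.6 and 0.60 in CSR11 salt against 186 and 161 in CSR11 control. The value of 0.60 came from the faint salt array B, where the deposited intensity was 0.15. The log2 difference was -2.48 in CSR11 (SE 0.45, adjusted p = 0.00363) and, without that array, -1.47. In VSR156 it was -1.30 (adjusted p = 0.0752), with a standard error of 0.45 that is pooled over all groups and so carries the spread of the CSR11 salt arrays. Without CSR11 salt array A or B the VSR156 difference was -1.31 or -1.32 and passed (adjusted p = 2.55e-05 and 2.76e-05), and on values as deposited the CSR11 call was lost (-1.97, adjusted p = 0.35). Under drought the probe set had 72.6 and 79.1 in IR64 drought against 123 and 112 in IR64 control, and 113 and 128 in Vandana drought against 80.6 and 83.5 in Vandana control, and neither difference was called (-0.54 and 0.47, adjusted p = 0.607 and 0.615; -0.10 and 0.026 with the controls exchanged). The dim probe set stayed between 0.12 and 7.83 on all 16 arrays, with a mean below the median of all probe sets, and was called in no comparison.

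SUS3, described in rice mainly from the grain like SUS4, was dim here. Its probe set Os.9860.1.S1_at had 24.3 and 16 in CSR11 salt against 58.0 and 70.0 in CSR11 control, and 19.0 and 1.51 in VSR156 salt against 17.7 and 15.3 in VSR156 control. Under drought it stayed between 1.35 and 9.21 in drought arrays of both varieties, against 1.74 to 14.4 in the controls. It fell by 1.15 in CSR11 salt (adjusted p = 0.0158), and the call was lost without CSR11 control array A, control array B or salt array B, with values of -1.28, -1.05 and -1.01 (adjusted p = 0.0517, 0.086 and 0.0964). The other differences were -0.39 in VSR156 salt, 0.38 in IR64 drought and -0.43 in Vandana drought (adjusted p = 0.422, 0.529 and 0.381), and both drought values turned, to -0.27 and 0.22, with the controls exchanged.

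The responses of SUS1 and SUS4 can be set against each other within an array, where multiplying the whole array by 1 factor cannot move the ratio. Other differences between arrays can still move it, since they need not act alike on both probe sets. This comparison was chosen after their values had been seen. On deposited intensities, the SUS4 probe set over the SUS1 probe set was 28.0 and 27.6 on the IR64 drought arrays, against 0.91 and 0.92 on the IR64 control arrays, and 27.6 and 29.8 on the Vandana drought arrays, against 0.17 and 0.19 on the Vandana control arrays. In the salt experiment it was 0.74 and 0.56 in VSR156 salt against 0.20 and 0.17 in VSR156 control, and 0.34 and 0.66 in CSR11 salt against 0.16 and 0.29 in CSR11 control. Since the probes of both sets bind differently, such a ratio has no meaning as a ratio of transcripts, and only its change between groups is used. Stress was above control in all 4 varieties, by 1.80 in VSR156, 1.12 in CSR11, 4.92 in IR64 and 7.30 in Vandana on the log2 scale. The mean change of 3.79 had p = 0.00154 in a two-sided exact permutation test over the 1296 relabellings of arrays within varieties, the smallest p this test can give (0.00231 adjusted over the 3 ratios computed). Because the pair was picked for values that moved apart, this p cannot measure how unusual the change is, and no conclusion is drawn from it. The mean also joins salt and drought responses. The CSR11 value moved to 0.63 without salt array B and to 0.70 without control array A.

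The same was done with SUS2, the brightest member, as the partner. SUS1 over SUS2 was lower under stress in all 4 varieties, at -2.07 in VSR156, -0.81 in CSR11, -2.91 in IR64 and -3.39 in Vandana, with a mean of -2.30 (exact permutation p = 0.00154, adjusted 0.00231). SUS4 over SUS2 changed by 2.01 in IR64 and 3.91 in Vandana drought, and by -0.26 in VSR156 and 0.31 in CSR11 salt, where the CSR11 arrays overlapped (mean 1.49, exact permutation p = 0.0278, adjusted 0.0278). In CSR11, SUS1 over SUS2 was -0.33 without the faint salt array B and -1.29 without salt array A, and SUS4 over SUS2 ran from -0.045 without control array A to 0.66 without control array B. The values of the other varieties moved by less than 1.5 times when 1 array was left out. Both ratios hold SUS1 or SUS4, picked for their values, so the limit on p given above applies here too. These means also join salt and drought responses.

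**Figure D3:**
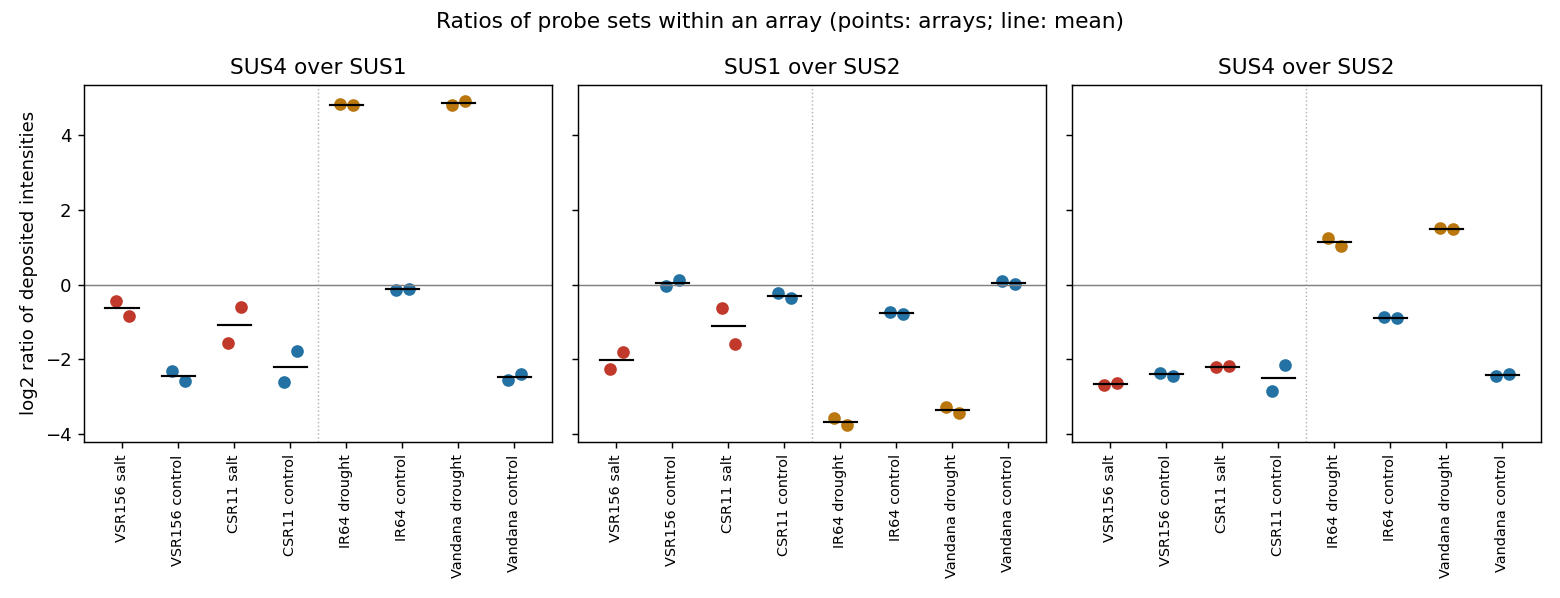
Log2 ratio of the deposited intensities of 2 probe sets on the same array on the y axis, for SUS4 over SUS1, SUS1 over SUS2 and SUS4 over SUS2, with 1 point per array (red salt, ochre drought, blue control) and a line at the mean. The 4 drought arrays have SUS4 over SUS1 ratios of 27.6 to 29.8, near 5 on this log2 axis, and the controls of both varieties are lower and differ from each other.

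The varieties were also compared. In the control plants, 2 of the 8 member probe sets were called between VSR156 and CSR11, against 4.94% of all probe sets (2.11% higher and 2.83% lower in VSR156), and 2 of 8 between IR64 and Vandana, against 4.75% (2.61% higher and 2.14% lower in IR64). In VSR156 control the SUS1 probe set Os.57465.1.S1_x_at was lower than in CSR11 control by 1.25 (log2 difference -1.25, adjusted p = 0.0125), whereas the brighter SUS1 probe set differed by -0.07 (adjusted p = 0.992), so that the probe sets of SUS1 differ here. SUS3 had 17.7 and 15.3 in VSR156 control and 58.0 and 70.0 in CSR11 control (-1.29, adjusted p = 0.0106). Neither call held without each array: that of SUS1 was lost without VSR156 control array A (-0.88) or CSR11 control array A (-1.17), and that of SUS3 without VSR156 control array A (-1.33), VSR156 control array B (-1.23) or CSR11 control array B (-1.19). In IR64 control both SUS1 probe sets were lower than in Vandana control, at -1.28 and -1.35 (adjusted p = 0.00446 and 0.00786), and the Os.57465.1.S1_x_at call was lost without IR64 control array A (-1.24, adjusted p = 0.0773) or Vandana control array A (-1.12, adjusted p = 0.0869). SUS4 and SUS5 were higher in IR64 control by 0.87 and 0.77 and SUS2 was lower by 0.54 (-0.54), all short of the fold threshold.

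The difference of the responses was tested as an interaction, called at the adjusted p alone, which called 9.04% of all probe sets for salt (4.39% with the higher response in VSR156, 4.65% with the lower) and 7.41% for drought (3.76% with the higher response in IR64, 3.65% with the lower). For salt 1 of 8 member probe sets was called, SUS2, whose response was higher in VSR156 than in CSR11 by 0.54 (adjusted p = 0.0417). For drought 4 of 8 were called. The response in IR64 minus that in Vandana was 1.45 for SUS1 Os.57465.1.S1_x_at (adjusted p = 0.0463), 0.86 for SUS2 (adjusted p = 0.0035), -0.84 for SUS4 (adjusted p = 0.0151) and -1.39 for SUS5 (adjusted p = 0.000345). The brighter SUS1 probe set gave 1.18 (adjusted p = 0.0601). With the controls exchanged, each of the 4 changed sign, to -1.26, -0.23, 0.90 and 0.15, so that these differences rest on which control belongs to which drought arrays. Of these, SUS4 was called in the other direction (adjusted p = 0.0186). The brighter SUS1 probe set turned to -1.39 and was then called (adjusted p = 0.0471). Within the drought experiment, the order of group means for SUS1 Os.25677.1.S1_at was Vandana control, IR64 control, Vandana drought and IR64 drought, with no overlap between neighbours, and for SUS4 it was IR64 drought, Vandana drought, IR64 control and Vandana control, where the drought groups overlapped.

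The genes around sucrose synthase were described from lists of sucrose, starch and sugar genes, of which 63 genes were measured. In VSR156 salt 7 were up and 5 down regulated (19.0%), in CSR11 salt 3 up and 2 down (7.94%), in IR64 drought 7 up and 4 down (17.5%), and in Vandana drought 11 up and 11 down (34.9%), against 7.75%, 6.33%, 6.96% and 11.8% of all probe sets. These shares are not like for like. Each listed gene stands by its brightest probe set, while all probe sets include many dim ones, for which a change of 1 is harder to reach. These counts, and the calls of single genes below, depend on the scaling and on the control. On values as deposited they were 0 up and 20 down in VSR156 salt, where 22.8% of all probe sets were called, 0 in CSR11 salt (0.0227%), 4 up and 0 down in IR64 drought (1.57%), and 3 up and 4 down in Vandana drought (5.38%). On centred arrays they were 1 up and 17 down in VSR156 salt, 0 up and 2 down in CSR11 salt, 6 up and 1 down in IR64 drought, and 6 up and 6 down in Vandana drought. With the controls exchanged, 10 were up and 10 down for the IR64 drought arrays (10.4% of all probe sets called) and 9 up and 4 down for the Vandana drought arrays (6.28%), so that the order of the 2 drought comparisons turned round with the control. The median log2 fold change of the 63 genes was 0.06, 0.08, 0.02 and 0.01 in the same order. No UDP-glucose pyrophosphorylase, the enzyme that turns the product of sucrose synthase into glucose 1-phosphate, was measured under a name of the list.

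Among 5 sucrose phosphate synthases and phosphatases, which make sucrose, 1 was called in the 4 comparisons, SPS8, which rose by 1.59 in Vandana drought (adjusted p = 2.74e-05; 1.16 against the IR64 control). Of 7 invertases, the cell wall invertase CIN4 fell in both salt comparisons, at -1.48 in VSR156 and -1.27 in CSR11 (adjusted p = 0.000476 and 0.00169). On values as deposited CIN4 had -1.66 in CSR11 salt and was not called. The neutral invertase NIN1 rose by 1.37 in IR64 drought and 2.33 in Vandana drought (adjusted p = 0.000738 and 6.2e-06; 2.30 and 1.39 with the controls exchanged). CIN1 fell under drought, at -1.72 in IR64 and -1.56 in Vandana (-1.12 and -2.17 with the controls exchanged), while its call in VSR156 salt (1.15) turned to -1.15 on values as deposited and to -0.60 with centred arrays. In total 1 invertase rose and 2 fell in VSR156 salt, 1 fell in CSR11 salt, and 1 rose and 1 fell in each drought comparison.

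Of 16 sucrose and SWEET sugar carriers, which move sugars across membranes, 1 rose and 1 fell in VSR156 salt, none was called in CSR11 salt, 1 rose and 2 fell in IR64 drought, and 4 rose and 5 fell in Vandana drought. Against the exchanged controls, 3 rose and 5 fell for the IR64 drought arrays, and 3 rose and 2 fell for the Vandana drought arrays. On values as deposited 5 fell in VSR156 salt and none rose, and with centred arrays 4 fell and none rose. SWEET15 rose by 1.80 in VSR156 salt, by 2.87 in IR64 drought and by 5.37 in Vandana drought (adjusted p = 0.00382, 0.000156 and 5.48e-07), and the drought values were 5.24 and 2.997 with the controls exchanged. Under drought SWEET2B fell, at -2.37 in IR64 and -3.30 in Vandana, and so did SWEET2A, at -1.23 and -1.77. Once the controls were exchanged, SWEET2B had -3.27 and -2.40 and SWEET2A had -1.98 and -1.02. SWEET11 fell at -2.16 in VSR156 salt and -2.48 in Vandana drought, where the difference was -0.31 against the IR64 control.

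Of 4 starch synthesis genes, 2 rose in each of the 4 comparisons and 2 also fell in Vandana drought. Starch synthase SSI rose by 1.09 in VSR156 salt, 2.01 in CSR11 salt, 2.71 in IR64 drought and 2.54 in Vandana drought (2.46 and 2.79 with the controls exchanged), although the VSR156 value turned to -1.32 on values as deposited and to -0.77 with centred arrays. WX, the granule-bound starch synthase that makes amylose, rose by 3.90 in VSR156 salt and 2.76 in CSR11 salt (adjusted p = 7.51e-07 and 1.8e-05) and fell by 1.52 in Vandana drought, which was -0.59 against the IR64 control. The WX salt values were 1.685 and 1.743 on values as deposited and 2.235 and 1.891 with centred arrays. No starch synthesis gene was up regulated in CSR11 salt on either scaling, or in VSR156 salt on values as deposited. Of 8 trehalose genes, 1 fell in VSR156 salt, 1 rose and 1 fell in IR64 drought, and 1 rose and 2 fell in Vandana drought, among them TPP1, a trehalose phosphate phosphatase, at -1.16 in IR64 and -1.61 in Vandana (-1.74 and -1.04 with the controls exchanged). Another, TPP7, was called at -1.04 in VSR156 salt, 2.18 in IR64 drought and -3.69 in Vandana drought, and the drought values came to -0.83 and -0.68 with the controls exchanged. Of 5 amylases, AMY2A rose by 1.28 in IR64 and 1.88 in Vandana drought (1.60 and 1.56 with the controls exchanged), AMY3D changed by -2.29 in CSR11 salt and 1.52 in IR64 drought (1.19 against the Vandana control), and AMY1A and AMY3E rose by 3.22 and 1.72 in VSR156 salt. No amylase was up regulated in VSR156 salt on values as deposited (AMY1A 0.84, AMY3E 0.19) or with centred arrays (1.39 and 0.73). AMY3D was not called in CSR11 salt on values as deposited (-2.14). Of 4 fermentation genes, ADH2 was called at 1.76 in VSR156 salt, which turned to -0.67 on values as deposited and to -0.12 with centred arrays, and PDC1 rose by 1.24 in CSR11 salt. PDC1 had 0.21 in CSR11 salt on values as deposited and 0.36 with centred arrays, and was called in neither. Of 6 sugar signalling genes, MYBS1 fell by 1.70 in Vandana drought, which was -0.81 against the IR64 control. Of 8 hexokinases and fructokinases, which phosphorylate the hexoses that sucrose cleavage releases, 1 fell in VSR156 salt and 1 rose in Vandana drought.

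**Figure D4:**
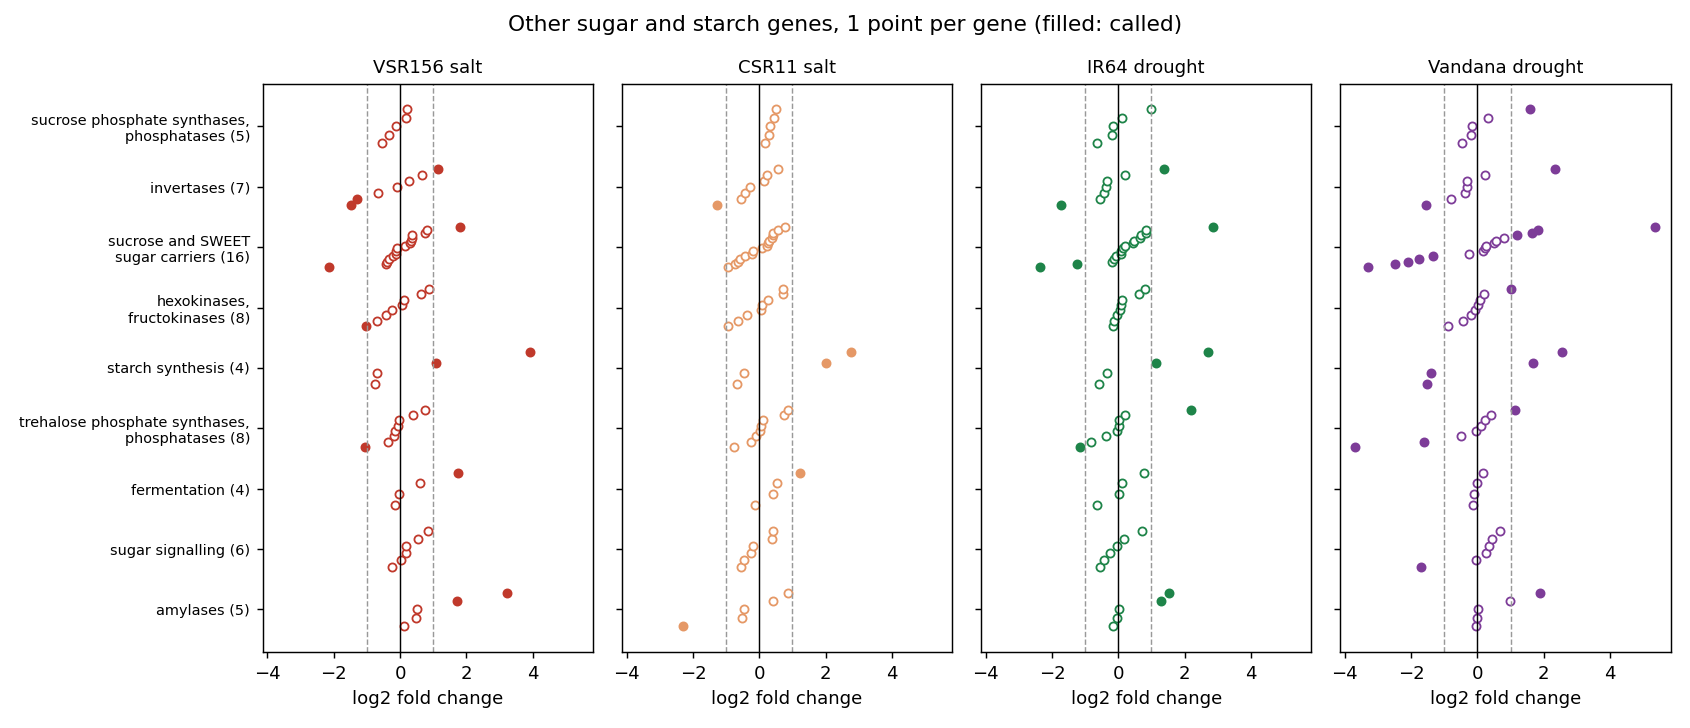
Log2 fold change of stress over control on the x axis for 63 sugar and starch genes, 1 point per gene, by list on the y axis with the number of genes measured, in 4 panels for the comparisons; filled points were called and dashed lines mark a change of 1. Vandana drought has 22 filled points, and CSR11 salt has 5.

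Among 2209 named genes with a bright enough probe set, those with the pattern most like a member over the 8 group means were found by Pearson correlation, given as a description. For SUS1 these were RNC1, Rac4 and mdr17 (r = 0.993, 0.987 and 0.986), and for SUS4 they were GA20OX3, TIP4;2 and AOS3 (r = 0.991, 0.985 and 0.983). For SUS2, SUS3, SUS5 and SUS6 the best r was 0.947 (ARP9), 0.937 (IRT2), 0.914 (CPK12) and 0.952 (CDPK1). The genes depend on the measure. By Spearman correlation over the 16 arrays they were RNC1, PDIL2-3 and K16 for SUS1, and RAP, DI19-3 and ORR1 for SUS4. The first gene was then SAPK9 for SUS2, SAPK2 for SUS3, HOX5 for SUS5 and again CDPK1 for SUS6. With 8 points of which 2 come from each variety, high correlations are reached by many genes, and the groups share arrays that differ in level.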

How the data were processed

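The authors deposited a table of linear intensities. GCOS 1.0 is named in the submitters' processing notes and RMA in the methods. The deposited intensities were not on a common level and come without detection calls. The table holds 57381 probe sets, of which 187 are controls and were not used. Quantile normalization was run on the remaining 57194 over 16 arrays, and 16 was added before log2. One limma 3.58.1 model (R 4.3.3) of 8 group means was fitted to all arrays (residual degrees of freedom 8, prior 2.94), with Benjamini-Hochberg adjustment over all probe sets. The number of arrays limits the precision. Genes were named from the array annotation, with symbols updated by gene ID through RefSeq, which held all 22436 probe sets with exactly 1 gene. The brightest probe set stands for its gene. Members and gene lists were chosen with earlier results of these data known. All member probe sets are described, and of each list at most 2 genes a direction with the largest called change. In simulated data with 200 of 57194 probe sets shifted, for VSR156 salt, 68% of shifts of 1.5 and 94% of shifts of 3 were called, with 5 false calls. The shifted probe sets were drawn from those above the median level. The simulated noise was independent between arrays, with no differences in array level or RNA quality and no normalization step. These rates therefore need not hold for the real salt arrays. Python 3.11.15, with pandas 2.3.3, scipy 1.17.1 and matplotlib 3.10.9, was used for further steps. Alternatives covered scaling, pseudocount, a filter on dim probe sets, the arrays fitted, a replicate block, array weights, the methods' t-test, each array left out and the control of the other drought variety.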

Additional observations from a re-analysis of the deposited data

Results flagged for a closer look

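In 5 tests of member probe sets, the responses of both varieties to the same stress differed in the interaction test of limma. Under salt this was SUS2, at 0.54 (VSR156 minus CSR11). Under drought (IR64 minus Vandana) these were SUS1 Os.57465.1.S1_x_at at 1.45, SUS2 at 0.86, SUS4 at -0.84 and SUS5 at -1.39. The SUS2 salt difference was lost in 11 of 16 fits that left out 1 array, with adjusted p between 0.0185 and 0.136. Among the drought differences, that of SUS1 was lost in 10 of 16 such fits (adjusted p between 0.0268 and 0.18) and that of SUS4 in 5 of 16 (0.00941 to 0.0758), while those of SUS2 and SUS5 were lost in 0 of 16. The 4 drought differences changed sign once the controls of IR64 and Vandana were exchanged. Groups of 2 arrays are too small for a check for single outlying arrays.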

How the results depend on the processing

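Of 1122 values of single members under the alternatives, 978 kept their direction and side of the thresholds, 120 lost the call, 7 gained it and 17 changed direction. For each test 16 of the alternatives left out 1 array, often of a group not compared. A value called neither before nor after counts as kept, so the total is no measure of how firm the calls are. SUS1 kept its direction in every alternative run in all 4 stress comparisons. In Vandana drought it lost its call under the methods' t-test with Benjamini-Hochberg adjustment alone, which called 0 member probe sets in every comparison tested. SUS4 kept its direction under drought and lost its call in both varieties on values as deposited and under that t-test.

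The number of member probe sets called was 3 in VSR156 salt, 4 in CSR11 salt, 3 in each drought comparison, 1 and 4 for the salt and drought interactions and 2 in each comparison of controls. On values as deposited it was 0 in CSR11 salt, IR64 drought, both interactions and both comparisons of controls. With arrays centred on their median it was 1 in IR64 drought and 0 in the others of these. A pseudocount of 1 gave 2 in CSR11 salt, 0 and 1 for the salt and drought interactions and 0 for the salt controls, and a pseudocount of 64 gave 2 for the salt interaction and 1 for the salt controls. With the arrays of 1 experiment it was 1 in CSR11 salt, 0 for the salt interaction and 0 for the salt controls. With the groups compared alone it was 0, 0 and 1 for these. Array weights gave 2 in CSR11 salt and 0 for the salt interaction, and the filter on dim probe sets also gave 0 for that interaction. The unadjusted t-test called 1 in VSR156 salt, 1 in CSR11 salt and 1 in each comparison of controls. With the other variety's control 2 drought interactions were called, both opposite in sign to those with the own controls. These were SUS4 at 0.90 and SUS1 Os.25677.1.S1_at at -1.39 (adjusted p = 0.0186 and 0.0471). Leaving out each array gave 3 to 4 in VSR156 salt, 2 to 4 in CSR11 salt (2 without CSR11 salt array B), 3 in each drought comparison, 0 to 2 for the salt and 2 to 6 for the drought interaction, 0 to 2 for the salt controls (0 without VSR156 control array A) and 1 to 2 for the drought controls. Within a variety, the deviations of stress and control arrays of 1 letter had r from -0.03 to 0.01, so no deviation shared by a letter was seen. This cannot settle whether the letters pair the arrays. With the letter as a replicate block the salt interaction went to 0 calls and the drought interaction to 5, and the other counts were as before. The causes of these changes were not tested.

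Directions changed as follows. On values as deposited, SUS4 in VSR156 salt was -1.99 (-1.44 when centred), SUS6 in Vandana drought was -0.015 (Os.51168.1.S1_at) and -0.086 (Os.52194.1.S1_at), and the SUS2 salt interaction was -0.16. Against the other variety's control, SUS3 was -0.27 in IR64 and 0.22 in Vandana, SUS5 0.10 and -0.050, SUS2 0.28 in Vandana, and the drought interactions of SUS1 Os.57465.1.S1_x_at, SUS2, SUS4 and SUS5 were -1.26, -0.23, 0.90 and 0.15. Without single arrays, SUS3 in VSR156 salt ran from -0.92 to 0.11 and SUS6 Os.51168.1.S1_at in IR64 drought from -0.25 to 0.13. As a ratio within an array, SUS4 over SUS2 in VSR156 salt was -0.26. Dim probe sets (SUS3 and SUS6 Os.51168.1.S1_at) have little signal over background, and a fold change there cannot be measured well.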
